A study of Mus musculus with 2 samples.

Results

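The genes described here handle cholesterol and stored lipid inside the cell. They are Abca1, Abcg1, Nr1h2, Nr1h3, Plin2, Soat1, Fabp5, Ch25h and Lpcat2, 9 of the 32285 genes measured, and they were picked by symbol from the tables of all 12 cell clusters. Cells carrying EYFP were sorted from the dentate gyrus (DG) of adult mice and their RNA was sequenced cell by cell, with 1 WT and 1 iKD library, each pooled from 5 littermates. WT mice were NestinCreERT2;VEGFWT/WT;ROSA-STOP-EYFP and iKD mice were NestinCreERT2;VEGFfloxed;ROSA-STOP-EYFP. Both genotypes received tamoxifen (TAM) for 5 d from an age of 7 to 10 wk, and cells were taken 21 d after TAM. CreERT2 is driven by the Nestin promoter, and the model is meant to delete Vegfa and label cells where this promoter is used and in their descendants. Where either event took place was not tested here. The WT library held 5543 cells with a median of 8051 UMIs (unique molecular identifiers, each counting 1 captured RNA molecule), and the iKD library 5261 cells with a median of 7080.

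Cholesterol that a cell does not need is either exported or stored. Oxysterols, which are oxidized forms of cholesterol, activate the liver X receptors LXR alpha (Nr1h3) and LXR beta (Nr1h2), and these induce the transporters Abca1 and Abcg1, which load cholesterol onto apolipoproteins such as ApoE. Storage begins with Soat1, which esterifies cholesterol, and the esters collect in lipid droplets coated by Plin2. In the brain, glia carry out much of this traffic, and microglia that engulf myelin or debris must export or store its cholesterol.

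The cluster names deposited with the data (qNSC1, qNSC2, aNSC, NSPCs, IPC1, IPC2, eNB and NB for quiescent and active neural stem cells, progenitors and neuroblasts) are kept below as labels only, because marker genes went against them. The names qNSC1 and qNSC2 follow the deposited labels, under which qNSC1 held 292 cells and qNSC2 held 502, whereas a cell count sheet of the study gives these 2 names the other way round. Over these 8 clusters, each of 10 microglia markers, among them Cx3cr1, P2ry12 and Tmem119, was found in at least 99.1% of cells. The 9 neural stem cell markers, among them Hopx, Nes and Sox2, were each found in at most 1.97% of cells, and in at most 11.99% of cells of qNSC1. The 6 intermediate progenitor markers reached at most 1.63%, the 5 neuroblast markers 0.204% and the 8 border macrophage markers 3.43%. In the cluster named astrocytes, which held 134 cells, all 8 choroid plexus markers were found in more than 50% of cells, as were 4 of the 10 microglia markers and 2 of the 9 neural stem cell markers. The libraries also differed in respects that touch the comparisons of genotypes. The 6 clusters from qNSC1 to IPC2 held 3752 WT and 3412 iKD cells in a different mix, which touches every level pooled over them. Of these cells, qNSC2 held 195 and 307, IPC1 867 and 1138, and IPC2 1170 and 793. The share of female cells over the 6 clusters from qNSC1 to IPC2 was 47.0% in WT (95% exact binomial interval 45.4 to 48.7) and 65.4% in iKD (63.7 to 67.0), scored from Xist and Y-linked RNA. The most widespread choroid plexus marker was found in 9.46% of WT and 99.7% of iKD cells of these 6 clusters, where the summed level of the 8 markers was 0.153 and 10.6 counts per 10,000 UMIs. The set as a whole was not widespread. In iKD cells of NSPCs and of IPC1, 1 of the 8 markers was found in more than 50% of cells, and the median share over the 8 was 1.43% and 0.879%. Vegfa, the targeted gene, had 74 UMIs in WT (95% exact Poisson interval 58.1 to 92.9) and 36 in iKD (25.2 to 49.8) over the 6 clusters. These were out of 30163456 and 24320524 UMIs, and the levels were 0.0226 and 0.0137 counts per 10,000 UMIs. The study describes Vegfa as too near the limit of detection to compare between genotypes. With 1 library per genotype there was no replicate check and no test between genotypes, and all intervals below are 95% intervals of counting error only.

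On GRCm38, the transporter genes lie on chromosome 4 (Abca1, 53030787 to 53159895, minus strand) and chromosome 17 (Abcg1, 31057675 to 31117988, plus strand). The LXR genes lie on chromosome 7 (Nr1h2, 44549616 to 44553951, minus) and chromosome 2 (Nr1h3, 91184061 to 91202834, minus). Of the storage genes, Plin2 shares chromosome 4 with Abca1 (86648386 to 86670060, minus) and Soat1 lies on chromosome 1 (156424525 to 156474331, minus). The others are Fabp5 on chromosome 3 (10012548 to 10016607, plus), Ch25h on chromosome 19 (34473778 to 34475164, minus) and Lpcat2 on chromosome 8 (92855339 to 92919279, plus). All 9 are protein coding. The annotation also holds a processed pseudogene of Fabp5, Fabp5l2, so reads of Fabp5 could be split or lost, and its counts are uncertain.

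RefSeq promoter windows on GRCm38.p6, running from 250 bases before to 50 bases after a transcription start, matched 7 of the 9 genes by symbol, without Abcg1 and Fabp5. The windows of Abca1 (chr4:53159846-53160145), Plin2 (chr4:86670010-86670309) and Soat1 (chr1:156474279-156474578) are shown because these genes had their highest level in the same cluster, qNSC1. All 3 lie on the minus strand and are written 5′ to 3′, with the E-box letters CACGTG in capitals.
Abca1: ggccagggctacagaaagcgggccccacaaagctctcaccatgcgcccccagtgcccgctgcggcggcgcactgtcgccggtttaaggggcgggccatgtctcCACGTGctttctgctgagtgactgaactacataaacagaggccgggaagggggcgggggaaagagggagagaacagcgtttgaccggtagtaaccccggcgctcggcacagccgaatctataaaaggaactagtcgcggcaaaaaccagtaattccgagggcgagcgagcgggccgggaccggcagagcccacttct
Plin2: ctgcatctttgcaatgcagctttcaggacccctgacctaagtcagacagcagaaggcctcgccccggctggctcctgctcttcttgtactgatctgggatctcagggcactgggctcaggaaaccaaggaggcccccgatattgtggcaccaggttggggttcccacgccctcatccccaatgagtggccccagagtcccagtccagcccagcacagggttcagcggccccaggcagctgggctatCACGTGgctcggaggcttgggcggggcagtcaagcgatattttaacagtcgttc
Soat1: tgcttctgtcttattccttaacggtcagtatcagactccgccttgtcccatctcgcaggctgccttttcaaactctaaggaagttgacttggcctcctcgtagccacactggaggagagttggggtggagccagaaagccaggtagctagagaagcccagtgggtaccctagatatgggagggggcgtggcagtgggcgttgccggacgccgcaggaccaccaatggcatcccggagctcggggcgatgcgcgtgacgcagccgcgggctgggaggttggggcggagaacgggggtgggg
The E-box lay at -147 to -142 from the start of Abca1 and at -4 to 1 of Plin2, and was absent from the letters of the Soat1 window. It occurs in 7.15% of the 32851 promoter windows of the mouse, on either strand. The GC box GGGCGG was found in 4 of the 8 windows of these genes (Nr1h3 has 2 that overlap), those of Abca1, Plin2, Soat1 and Lpcat2, against 35.7% of all windows. The direct repeat bound by LXR with its partner RXR, 2 copies of AGGTCA spaced by 4 bases, was found with up to 2 mismatches in 0 of the 8 windows and in 3.02% of all. Sites with more than 2 mismatches were not counted, so this 0 does not mean that the windows, that of Abca1 included, hold no LXR site. The repeat bound by PPAR with RXR, with 1 base between the same copies, was found at that tolerance in the Plin2 window alone, at -225 to -213 on the opposite strand, and in 3.86% of all windows. These matches describe letters in short windows, and nothing follows from them about binding.

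Levels are counts of a gene per 10,000 UMIs of the cell, averaged over the cells of a cluster, and were compared only within a gene. Of the 9 genes, 7 reached a level of at least 0.1 in some cluster of the 8. The level of 5 of these 7 was highest in qNSC1, a cluster of 292 cells, where 25.2% of the 9486 genes tested had their highest level. The highest cluster exceeded the lowest by at least 2-fold, with 0.01 added to each level, for the same 5 of 7, against 16.8% of all genes. This count was 3 in male cells alone (Abca1, Abcg1 and Plin2) and 1 (Abca1) with 1 added to each level. The median of this range was 2.44-fold over the 7 genes and 1.51-fold over all genes. Fabp5 reached the minimum only through qNSC1 among these clusters, so its place there and its range follow from its inclusion, and without it both counts are 4 of 6. The clusters were made from the expression of these same cells, so differences between clusters are a description and carry no test.

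Abca1, which exports cholesterol and phospholipid to lipid-poor apolipoproteins, had levels in WT of 5.67 in qNSC1, 2.31 in qNSC2, 4.04 in aNSC, 3.13 in NSPCs, 3.62 in IPC1, 3.69 in IPC2, 3.59 in eNB and 3.46 in NB. In iKD its levels in the same order were 5.68, 2.33, 3.13, 2.87, 3.36, 3.29, 3.48 and 3.20. In both genotypes qNSC1 stood above and qNSC2 below the other 6 clusters, which lay close together. With both genotypes pooled, qNSC1 exceeded qNSC2 by 2.44-fold, and by 2.45-fold in WT and 2.43-fold in iKD. Against the 6 clusters from aNSC to NB, Abca1 was 1.67-fold higher in qNSC1 (log2 ratio 0.74, 0.66 to 0.82) and lower in qNSC2 (log2 ratio -0.54, -0.64 to -0.45). The log2 ratio for qNSC1 was 0.86 in female cells (0.76 to 0.95) and 0.41 in male cells (0.25 to 0.57), so the direction was the same in both and the size was not. Female cells made up 85.9% of IPC1 and 90.3% of eNB but 6.37% of IPC2. The 6 clusters compared against thus had a different make-up in each sex, which limits every ratio by sex against them, for this and the other genes.

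Abcg1, which moves cholesterol onto lipoprotein particles that already carry lipid, was also highest in qNSC1 and lowest in qNSC2. Its levels in WT were 2.09 in qNSC1, 0.440 in qNSC2, 1.04 in aNSC, 0.860 in NSPCs, 0.905 in IPC1, 0.842 in IPC2, 0.840 in eNB and 0.897 in NB. The iKD levels in that order were 1.70, 0.684, 0.930, 0.813, 0.904, 0.835, 0.904 and 0.942. The span from qNSC1 to qNSC2 was wider in WT (4.67-fold) than in iKD (2.46-fold), and 3.15-fold in all cells. Against the 6 clusters from aNSC to NB, Abcg1 was 2.13-fold higher in qNSC1 (log2 ratio 1.09, 0.95 to 1.23), with 1.07 in female and 1.10 in male cells.

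**Figure D1:**
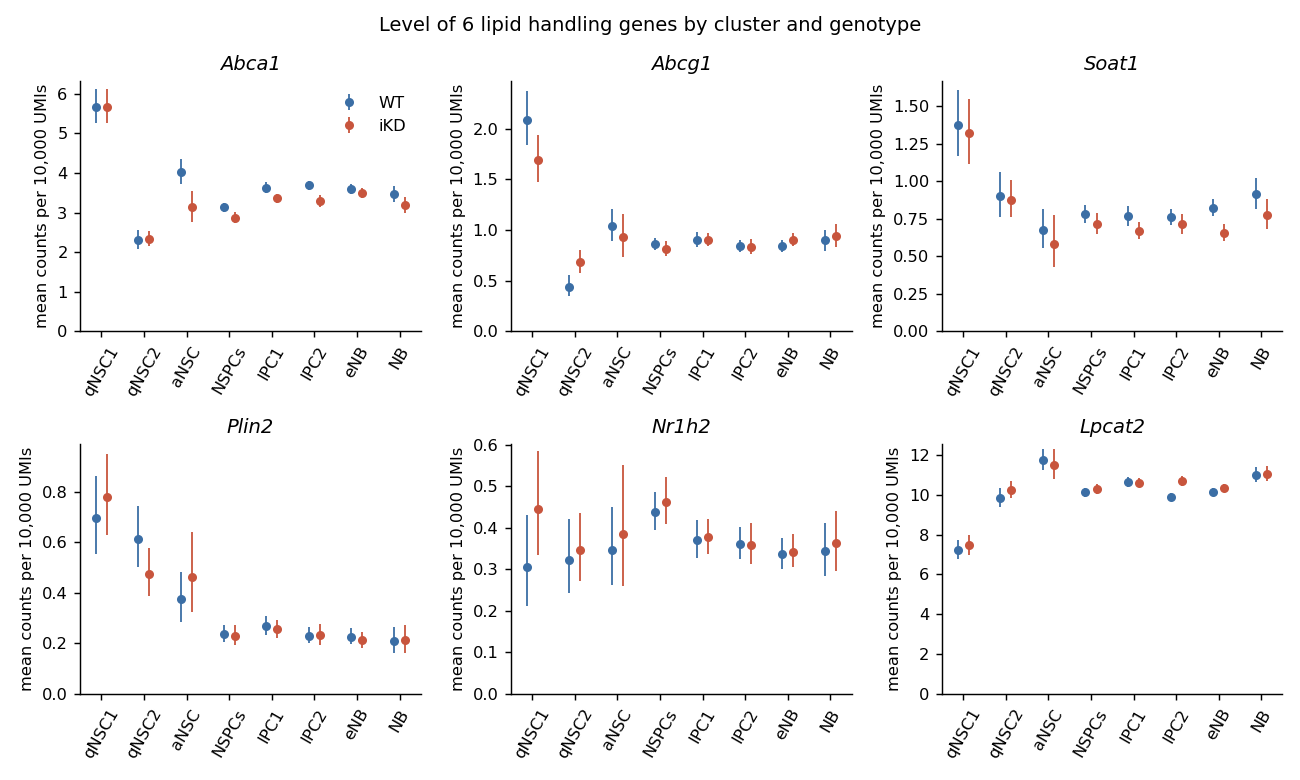
Level of 6 lipid handling genes in each of 8 clusters, as mean counts per 10,000 UMIs (each y axis starts at 0), for the WT and the iKD library, with bars for the 95% counting interval. Abca1, Abcg1, Plin2 and Soat1 were highest in qNSC1 in both libraries, whereas Lpcat2 was lowest there.

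The cluster levels of the lipid storage genes followed those of the transporters in qNSC1 but not in qNSC2. Plin2, the droplet coat protein, had a level in WT of 0.697 in qNSC1, 0.615 in qNSC2 and 0.374 in aNSC, and between 0.210 and 0.268 in the other 5 clusters. The iKD levels were 0.779, 0.476 and 0.463 in these clusters and between 0.212 and 0.256 in the others. The order qNSC1, qNSC2, aNSC was thus the same in both libraries, although in iKD the levels of qNSC2 and aNSC lay close together. Within WT female cells qNSC2 was slightly the higher, with 0.731 against 0.716 in qNSC1. Plin2 was 3.02-fold higher in qNSC1 (log2 ratio 1.59, 1.36 to 1.82) and 2.17-fold higher in qNSC2 (1.12, 0.90 to 1.32) than in the 6 clusters from aNSC to NB. The log2 ratio for qNSC1 was 1.52 in female and 1.88 in male cells. Soat1, the acyltransferase that makes cholesteryl esters, had a level of 1.38 in WT and 1.32 in iKD in qNSC1. Its levels elsewhere lay between 0.677 and 0.916 in WT and between 0.581 and 0.876 in iKD, with aNSC lowest in both. Soat1 was 1.80-fold higher in qNSC1 (log2 ratio 0.85, 0.68 to 1.01) and 1.19-fold higher in qNSC2 (0.25, 0.09 to 0.41).

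**Figure D2:**
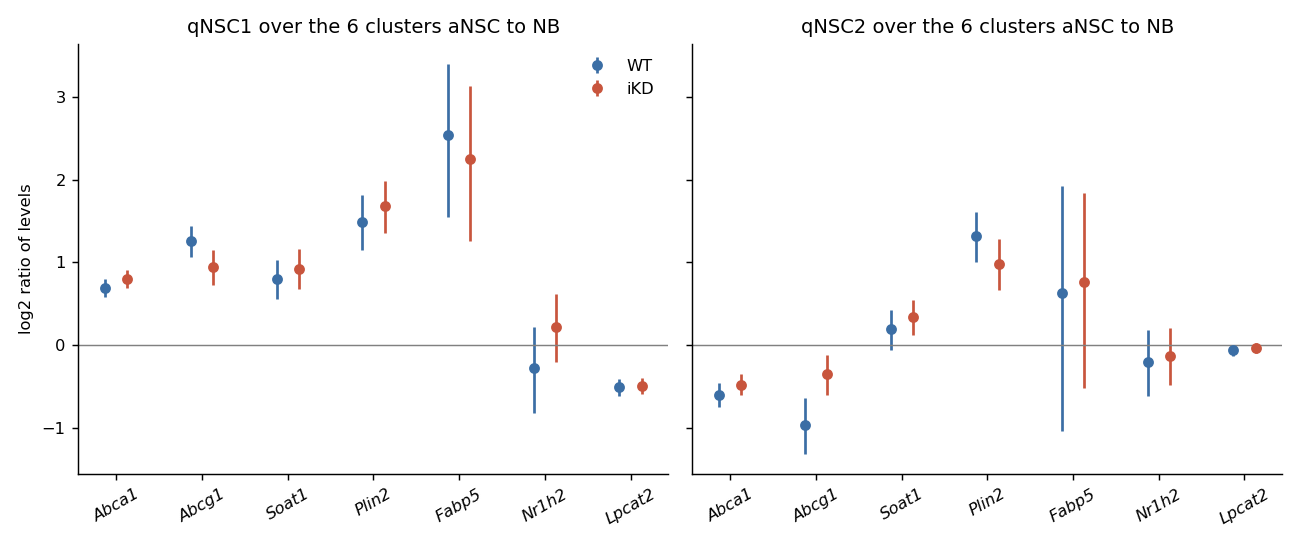
Log2 ratio of the level in qNSC1 (left) and in qNSC2 (right) over the 6 clusters from aNSC to NB, for 7 genes in the WT and the iKD library, with 95% counting intervals and a grey line at 0. In qNSC1 the transporters and both storage genes lay above 0, whereas in qNSC2 Plin2 lay above 0, Abca1 and Abcg1 below it, and the interval of Soat1 held 0 in WT (-0.06 to 0.42).

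Lpcat2, which acylates lysophospholipids in the making of phosphatidylcholine and platelet-activating factor, ran the other way. Its level in WT was 7.23 in qNSC1, 9.85 in qNSC2 and 11.7 in aNSC, and its level in iKD was 7.46, 10.3 and 11.5 in these clusters. The other 5 clusters lay between 9.89 and 11.0 in WT and between 10.3 and 11.0 in iKD. qNSC1 was thus the lowest cluster in both libraries, 0.706-fold of the level from aNSC to NB (log2 ratio -0.50, -0.57 to -0.43). The log2 ratio was -0.49 in female and -0.52 in male cells.

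Of the LXR genes, Nr1h2 varied little and Nr1h3 was barely detected. Nr1h2 had levels between 0.306 and 0.439 in WT and between 0.343 and 0.462 in iKD, with NSPCs highest in both, and the highest cluster exceeded the lowest by 1.32-fold with both libraries pooled. Its level in qNSC1 was 1.01-fold of that from aNSC to NB (log2 ratio 0.02, -0.31 to 0.33), but the sign was not the same in both libraries. In WT qNSC1 was the lowest of the 8 clusters (log2 ratio -0.28, -0.82 to 0.22) and in iKD the second highest (0.22, -0.20 to 0.62), with intervals that hold 0. Nr1h3 had 24 UMIs in the 3752 WT cells and 19 in the 3412 iKD cells of the 6 clusters, found in 0.600% of these cells. Its share in the cluster named astrocytes was 6.72% (11 UMIs), so the low share elsewhere lay below that of cells with choroid plexus markers and no order of clusters was read from it.

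Fabp5, a carrier of fatty acids, and Ch25h, the enzyme that makes 25-hydroxycholesterol, were also sparse. Fabp5 had 13 UMIs in qNSC1 in each genotype, found in 9 WT and 8 iKD cells. The highest count in a cell there was 3 in WT and 5 in iKD. Its level in qNSC1 was 5.22-fold that from aNSC to NB (log2 ratio 2.38, 1.72 to 3.0). The share of qNSC1 cells with a Fabp5 UMI was 5.82% (3.43 to 9.16), against 2.99% in the cluster named astrocytes (0.819 to 7.47), and these intervals overlap. A few cells outside the 8 clusters held much of the Fabp5 RNA. In the iKD cells of the cluster named IN2, 33 UMIs lay in 6 of 94 cells with up to 11 in a cell, and 1 of the 4 WT cells named astrocytes held 12. Ch25h was found in 4 of the 7164 cells of the 6 clusters, with 1 UMI in WT and 4 in iKD, too few to compare.

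Shares of cells gave the same picture at a fixed depth. Among the 7164 cells of the 6 clusters, a UMI of Abca1 was found in 82.8%, of Abcg1 in 43.2%, of Soat1 in 41.1%, of Nr1h2 in 25.0% and of Plin2 in 17.1%, and Lpcat2 was found in 99.7%. In the cluster named astrocytes (median 7722 UMIs), the shares were 26.1% for Abca1, 8.96% for Abcg1, 18.7% for Soat1, 36.6% for Nr1h2, 24.6% for Plin2 and 35.1% for Lpcat2. For Abca1, Abcg1, Soat1 and Lpcat2 these lay below the shares in the 6 clusters, whose cells had a median of 7999.5 UMIs in WT and 7032 in iKD. For Nr1h2 and Plin2 they lay above, so the shares of these genes over the 6 clusters were no higher than in that cluster, which itself carried microglial RNA and is not a clean reference. The Plin2 share in qNSC1 was 34.9% (29.5 to 40.7), and its interval overlapped that of the cluster named astrocytes (17.6 to 32.8). After each cell was thinned to 4500 UMIs, which left out 263 WT and 357 iKD cells below that depth, the share in qNSC1 was 82.8% for Abca1, 51.6% for Abcg1, 41.8% for Soat1 and 23.2% for Plin2. The thinned shares over the 6 clusters were 71.0%, 30.3%, 28.2% and 10.9%.

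Cells with several Abca1 UMIs were more frequent in qNSC1 than in the other clusters. In thinned cells of qNSC1, 42.9% of WT and 46.7% of iKD cells held at least 3 Abca1 UMIs, whereas in the other 7 clusters this share lay between 14.7% and 23.8%. Thinned qNSC1 cells with no Abca1 UMI made up 15.8% in WT and 18.4% in iKD, against 44.6% and 43.6% in qNSC2. For Abcg1, 44.4% of WT and 52.0% of iKD cells of qNSC1 had no UMI, and between 66.9% and 82.9% elsewhere. The transporters were also found together in qNSC1. An Abcg1 UMI was seen in 73.7% of the 57 WT cells with at least 3 Abca1 UMIs and in 28.6% of the 21 without any, and the iKD shares were 62.0% of 71 cells and 25.0% of 28. In the same order, a Soat1 UMI was seen in 35.1% and 61.9% of WT and 38.03% and 39.3% of iKD cells. For Plin2 the shares were 38.6% and 4.76% in WT, and 21.1% and 25.0% in iKD. Neither storage gene was thus more frequent in cells with at least 3 Abca1 UMIs in both libraries. Cells of 1 cluster and library are not replicates, so these shares are a description.

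**Figure D3:**
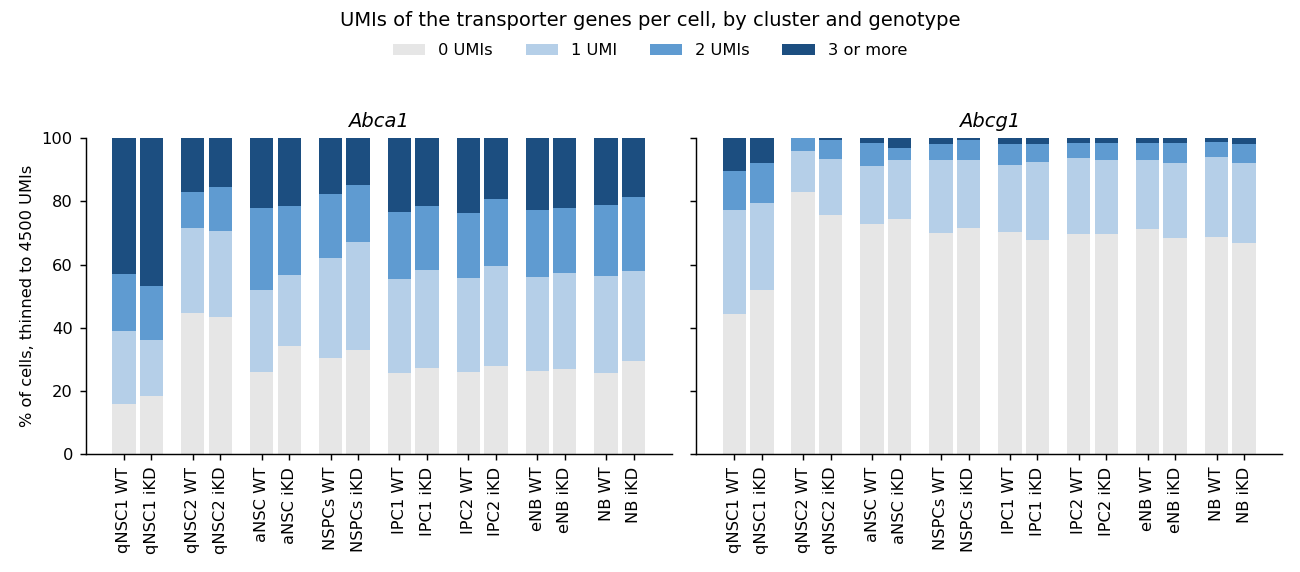
Share of cells (% of cells thinned to 4500 UMIs) with each number of UMIs of the gene, by cluster and library. In qNSC1, 42.9% of WT and 46.7% of iKD cells held at least 3 Abca1 UMIs, more than in any other of the 8 clusters plotted.

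The genotypes were compared over the 6 clusters from qNSC1 to IPC2, which the study set out to compare for effects of losing VEGF. The 6 genes with enough RNA to compare differed little. Of these genes, each with a level of 0.1 or more in a genotype, 0 differed by 0.25 or more on the log2 scale, where 4.56% of the 8836 genes tested did (2.4% lower and 2.16% higher in iKD). Of these 6, 3 were lower and 3 higher in iKD, where 44.7% of all genes were lower, and of all 9 genes 5 were lower. That last count was 3 with eNB and NB added and 2 as the mean of the 6 ratios within clusters. The median log2 ratio of the 6 was 0.0056, against 0.012 over all genes.

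The level of Abca1 was 3.51 in WT (10671 UMIs) and 3.22 in iKD (7956 UMIs), which gave a log2 ratio of -0.13 (-0.17 to -0.08). The ratio was -0.07 in female cells (-0.13 to -0.01) and -0.18 in male cells (-0.26 to -0.11), below 0 in both sexes. By cluster, the interval lay below 0 in aNSC (-0.36, -0.58 to -0.15), NSPCs (-0.13), IPC1 (-0.11) and IPC2 (-0.16). In qNSC1, where the gene was highest, the ratio was 0.00051 (-0.15 to 0.16), and in qNSC2 it was 0.02 (-0.17 to 0.21). In NSPCs the interval held 0 in female cells, the larger share (-0.07, -0.17 to 0.04), and lay below 0 in male cells (-0.37, -0.59 to -0.15). In IPC1 it lay below 0 in female cells (-0.10, -0.18 to -0.01) and in IPC2 in male cells (-0.15, -0.24 to -0.07), the larger share of each. The sexes were distributed unevenly in aNSC, with 38 female and 139 male cells in WT and 96 and 6 in iKD. Within female cells of aNSC the ratio was -0.09 (-0.44 to 0.27) and within male cells -0.27 (-1.08 to 0.45), so neither interval lay below 0 there.

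Soat1 had a level of 0.793 in WT (2397 UMIs) and 0.737 in iKD (1794 UMIs), which gave a log2 ratio of -0.10 (-0.19 to -0.01). It was lower in iKD in all 6 of these clusters and in all 8 with eNB and NB added. The interval lay below 0 in IPC1 (-0.20, -0.37 to -0.02) and in eNB (-0.32, -0.48 to -0.16). In IPC1 it held 0 in the female cells (-0.13, -0.32 to 0.06), which make up most of that cluster, and lay below 0 in 97 WT and 59 iKD male cells (-0.81, -1.54 to -0.12). Over the 6 clusters the ratio was -0.14 in female cells (-0.26 to -0.03) and -0.08 in male cells (-0.24 to 0.07), and the male interval held 0. In female cells of eNB it was -0.28 (-0.45 to -0.12).

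The level of Abcg1 was 0.896 in WT and 0.881 in iKD, with a log2 ratio of -0.02 (-0.11 to 0.06). Its ratio took opposite signs in the clusters where it was highest and lowest, with -0.30 in qNSC1 (-0.58 to -0.03) and 0.62 in qNSC2 (0.21 to 1.05). The qNSC1 ratio was -0.40 in female cells (-0.75 to -0.06) and -0.06 in male cells (-0.58 to 0.45), and the qNSC2 ratio was 0.51 (-0.02 to 1.07) and 0.64 (-0.30 to 1.57). Plin2 had 0.285 in WT and 0.294 in iKD (0.04, -0.10 to 0.19), Nr1h2 had 0.383 and 0.396 (0.05, -0.08 to 0.17), and both intervals held 0. Lpcat2 had 10.1 in WT and 10.4 in iKD (0.04, 0.01 to 0.06), with an interval above 0 in IPC2 alone among the 8 clusters (0.11, 0.06 to 0.16). Its ratio over the 6 clusters was 0.02 in female and 0.05 in male cells. IPC2 held 9 female and 1067 male cells in WT, and 116 and 616 in iKD. The remaining 3 genes were too sparse to compare, with 60 and 52 UMIs for Fabp5 (-0.05, -0.62 to 0.51). RNA of the most widespread choroid plexus marker, the share of female cells and the mix of clusters moved with genotype, as given above. Their part in the values was not tested.

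**Figure D4:**
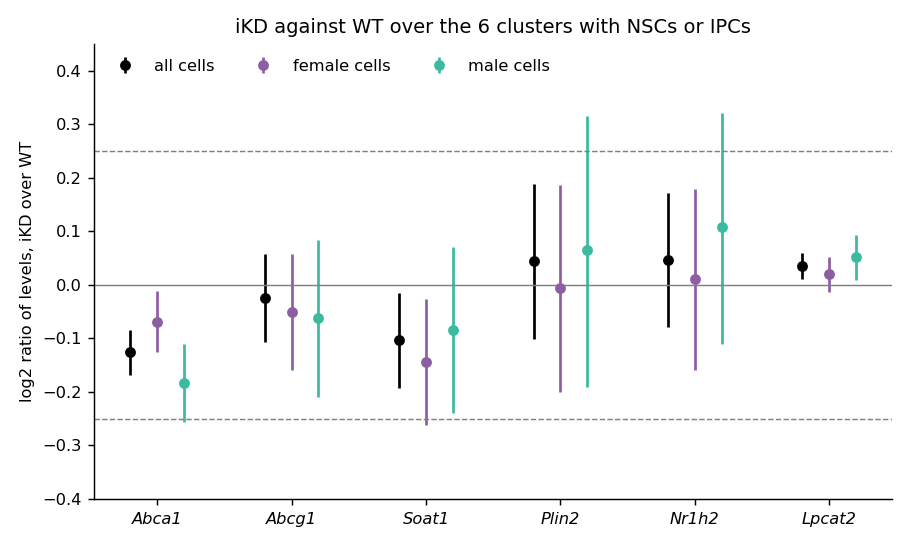
Log2 ratio of the level in iKD over WT across the 6 clusters from qNSC1 to IPC2, for all cells, female cells and male cells, with 95% counting intervals. All ratios lay inside 0.25 in size, and those of Abca1 were below 0 in all cells and in both sexes.

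The wider pathway was read from 7 lists of 111 further genes, of which 64 had a level of at least 0.1. Of these 64, 4 differed by at least 0.25 between genotypes, each higher in iKD, beside 4.56% of all genes, and 9 had a range of at least 2-fold over the 8 clusters, beside 16.8%. Among targets and partners of LXR, 15 of 21 were measured, with 3 lower and 12 higher in iKD, beside 44.7% of all genes lower, and a median log2 ratio of 0.07. Scarb1, a receptor for lipoproteins, had 0.163 in WT and 0.216 in iKD (0.38, 0.20 to 0.56), past the 0.25 limit. Apoe, the apolipoprotein that accepts exported cholesterol, had 4.09 in WT and 4.67 in iKD (0.19, 0.16 to 0.23). With both libraries pooled its level was 14.0 in qNSC1, 15.3 in qNSC2 and at most 5.55 in the other clusters pooled here. In qNSC1 there were 134 WT and 158 iKD cells, and in qNSC2 195 and 307. How far this mix of clusters entered the ratio of Apoe, or the counts of this list, was not tested. Mylip, which marks the LDL receptor for degradation, had 6.56 and 6.92 (0.08), and Abca9, another transporter of this family, had 3.91 and 3.86 (-0.02). Of the 9 genes with a 2-fold range, 5 are in this list.

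Lpl, which releases fatty acids from lipoproteins, had the widest range of the 64 genes, with a level of 1.61 in qNSC1 against 0.0629 in IPC2, or 22.2-fold. Nceh1, which frees cholesterol from its esters, had 0.571 in qNSC1 and a range of 4.38-fold, and the desaturase Scd2 had 0.774 there and 3.88-fold. Apoe had levels of 14.03 in qNSC1 and 15.3 in qNSC2, the cluster where Abca1 was lowest, and its own lowest level was 1.97 in IPC2. Abca9 and Alox5 had their lowest levels in qNSC1, and their ranges were 2.26-fold and 3.26-fold.

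In cholesterol synthesis and uptake, 11 of 26 genes were measured, with 5 lower and 6 higher in iKD, a median of 0.04 and none past 0.25. The scavenger and ApoE receptor Lrp1 had 2.96 in WT and 3.27 in iKD (0.14), Ebp 0.849 and 0.838, Insig2 0.574 and 0.570, and Pmvk 0.0978 and 0.113 (0.19). In lysosomal lipid handling, 9 of 10 were measured, with 8 lower and 1 higher (44.7% of all genes were lower), a median of -0.04 and none past 0.25, and 5 of the 9 were highest in qNSC1 (25.2% of all genes). Psap, the precursor of the saposins, had 10.8 and 10.9, Lamp1 had 6.50 and 6.33, and Npc2, which hands cholesterol out of the lysosome, had 4.52 and 4.37. The largest ratios in this list were -0.09 for Pla2g15 and -0.08 for Stard3.

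The lipid droplet list had 13 of 26 genes measured, with 5 lower and 8 higher in iKD and a median of 0.03. Plin3, a droplet coat protein related to Plin2, had 0.0930 in WT and 0.114 in iKD (0.26, 0.02 to 0.51) and its highest level in qNSC1. It was the gene of this list past 0.25, and the genes of highest level lay well inside that limit. Lpin2 had 2.52 and 2.57, the lipase Mgll 1.54 and 1.67 (0.12), and Acsl4 0.812 and 0.873 (0.10). Of the fatty acid genes, 5 of 12 were measured (2 lower, 3 higher, median 0.03), and Dbi, a carrier of acyl-CoA, had 0.592 and 0.719 (0.28, 0.18 to 0.37). Dbi was past 0.25 and the other 4 were not. Ppard, a nuclear receptor for fatty acids, had 0.556 and 0.567. The lysophospholipid list, to which Lpcat2 belongs by function, had 8 of 11 measured (3 lower, 5 higher, median 0.02), and Alox5, the first enzyme of leukotriene synthesis, was past 0.25. In it Alox5 had 0.287 and 0.344 (0.25, 0.12 to 0.39), Pla2g4a 1.48 and 1.66 (0.16), Ltc4s 6.07 and 6.20, Alox5ap 3.49 and 3.30 and Lpcat3 1.83 and 1.93. Of the oxysterol list, 4 of 6 were measured (2 lower, 2 higher, median -0.10). The list held Ebi3 by mistake, since it encodes a cytokine subunit, with 0.281 and 0.244 (-0.20), and without it 1 of 3 measured genes was lower in iKD. Hsd3b7 had 0.171 and 0.146 (-0.21), Cyp27a1 0.313 and 0.337, and the chemotactic oxysterol receptor Gpr183 3.78 and 3.79.

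**Figure D5:**
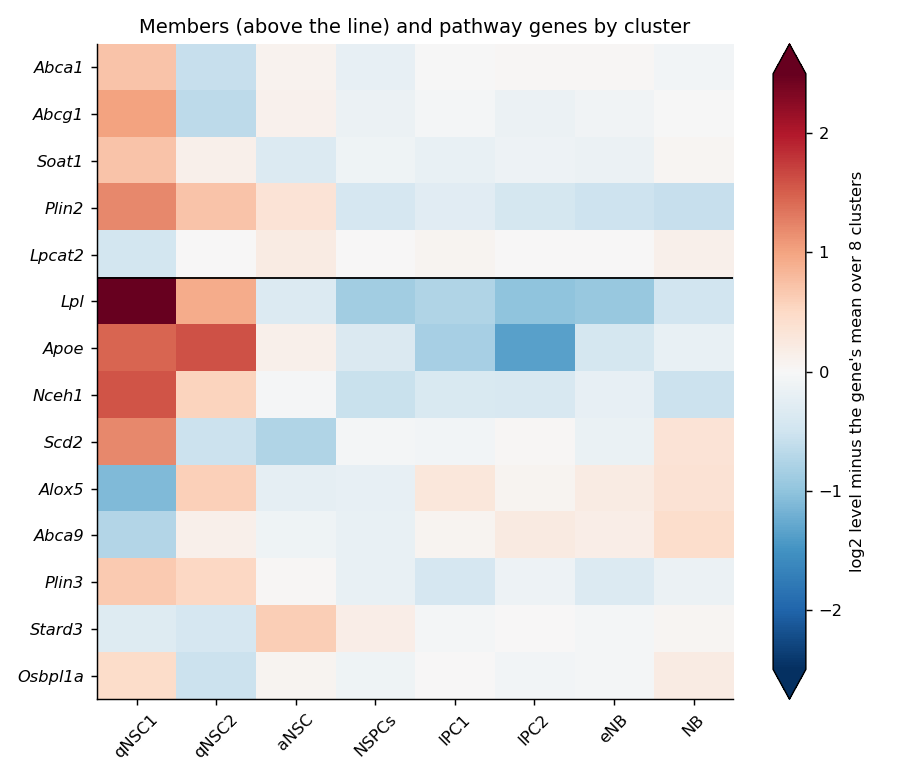
Log2 level of each gene in each of the 8 clusters minus its mean over them, for 5 of the 9 genes (above the line) and for the pathway genes with a range of at least 2-fold. Lpl, with 1.61 in qNSC1 and 0.0629 in IPC2, has the widest range of the pathway genes, and Apoe is highest in qNSC2. Colours saturate at 2.5 in size.

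The patterns of the genes over the 16 cluster values (8 clusters in each of 2 libraries) were compared as a description, since the values share libraries and clusters. Abca1 and Abcg1 were the most alike of the pairs, with Pearson's r of 0.93, and Soat1 and Lpcat2 ran opposite with -0.89. Abcg1 was also the gene nearest to Abca1 among 8727 genes, followed by Mfsd11 (0.91) and Snapc1 (0.90). Nearest to Abcg1 were Bnip3 (0.94), Bcl2l1 (0.93) and Gtf2f1 (0.93). Nearest to Plin2 were Actr3 (0.95), Hacd2 (0.94) and Dpp7 (0.94), and nearest to Soat1 were Pdgfa (0.93), Ank (0.92) and Snx8 (0.92). Nearest to Lpcat2 were Cysltr1 (0.95), Gtpbp2 (0.94) and Slc29a3 (0.93), and to Nr1h2 Supt4a (0.86), Pdlim4 (0.85) and Mrpl58 (0.85).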

How the data were processed

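Gene expression was measured in single EYFP+ cells of the adult mouse DG, with 1 WT and 1 iKD library. Natural log values were deposited by the authors in 12 tables, 1 per cluster, after alignment and UMI counting with Cell Ranger 7.0.1 and clustering with Seurat 4.1.1, as the submitters' processing notes name them. Those notes give a human build, GRCh38, whereas the gene symbols are of the mouse, so the build used for alignment is not known here. Whole UMI counts were recovered from the log values, and of the 32261786 values above 0, 100% came out whole to a tolerance of 0.01. All deposited cells and clusters were used, no doublet caller was run, and 9 of the 10804 cell barcodes occurred in both libraries.

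Levels are counts of a gene per 10,000 UMIs of each cell, averaged over cells. Ratios between levels are log2 with a pseudocount of 0.01 added to each, with exact binomial intervals of the summed counts, and on this scale the change of low genes is understated. Cells are not replicates, so no p-value was computed. A log2 ratio of 0.25 and a range of 2-fold were the size limits, applied where a gene reached a level of 0.1. On simulated counts for this comparison, 200 of 200 genes changed by 1.5-fold passed the log2 limit of 0.25, as did 20 of 8484 unchanged genes. The true ratio lay inside the counting interval for 185 of the 200 changed genes. A 1.5-fold change is well above the limit, so the first count does not show how smaller changes would fare. With 1 library per genotype, differences between mice and libraries could not be estimated. These rates are therefore not error rates for the measured ratios between genotypes. The genes named are the 9 members, for each measured member the 3 genes most like it in pattern, and from each of 7 pathway lists the 3 with the highest level and the 2 with the largest ratio, together with list genes whose range was at least 2-fold, which were chosen after their values were seen. The values of 1 gene that this rule names are not reported here. The members, lists and markers were chosen with earlier results of these data known. Coordinates are from GENCODE release 21, and promoters from RefSeq. Python 3.11.15, numpy 2.4.6, scipy 1.17.1 and pandas 2.3.3 were used.

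Other settings tried were CPM from UMIs summed over cells, pseudocounts of 1 and 0.001, a denominator without Ttr and sex-linked and mitochondrial genes, scaling by the median ratio, female or male cells, the 8 clusters, the mean of the 6 ratios within clusters, leaving out the 5% of cells richest in detected genes, thinning to 4500 UMIs, no level minimum, WT or iKD cells alone, and detection at 2 UMIs. The mean of the female and male ratios was added after the data were seen.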

Additional observations from a re-analysis of the deposited data

Results flagged for a closer look

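The ratio of Plin2 between genotypes over the 6 clusters took opposite signs in the sexes, with a log2 ratio of -0.0067 in female cells (-0.20 to 0.19) and 0.0645 in male cells (-0.19 to 0.32). The difference between the sexes was not tested, and both intervals hold 0.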

How the results depend on the processing

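No paired analysis was possible because each genotype has 1 library and the labels carry no replicate numbers. None of the members that reached the level minimum passed the 0.25 limit between genotypes under any alternative run. Ch25h, below that minimum with 5 UMIs, had log2 ratios between -0.07 and 0.92. The count of members lower in iKD was 5 of 9, but 3 with eNB and NB added and 2 as the mean of the 6 ratios within clusters. The log2 ratio stayed below 0 in 12 of 12 alternatives for Abca1 (-0.18 to -0.07) and Soat1 (-0.16 to -0.05). The count with a 2-fold range over the 8 clusters was 5, but 1 (Abca1) with a pseudocount of 1, and 3 (Abca1, Abcg1 and Plin2) in male cells. Abca1, Abcg1, Plin2 and Soat1 were highest in qNSC1 in 12 of 12 settings, a count that includes the main one. Changing the pseudocount or dropping the level minimum cannot change which cluster is highest, so those settings add nothing here. Fabp5 was also highest there in each, but it reached the level minimum only through qNSC1, and the iKD male cells of qNSC1 held 0 UMIs of it. The median over all genes moved by less than 0.1 on the log2 scale under each scaling. Intervals cover counting error only, and differences between mice, dissections and libraries cannot be told apart from genotype. Depth limits Nr1h3, Fabp5 and Ch25h most, with 43, 112 and 5 UMIs over the 6 clusters.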
